A study of Mus musculus with 8 samples.

Results

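The serine/arginine-rich (SR) splicing factors were examined in RNA sequencing of sorted mouse bone marrow stem cells. The members, taken by gene symbol, are the 10 genes Srsf1, Srsf2, Srsf3, Srsf4, Srsf5, Srsf6, Srsf7, Srsf9, Srsf10 and Srsf11. They were chosen with earlier results of these data known. They are 10 of the 52224 genes in the deposited table, and all 10 were among the 37414 genes tested. The study compared hematopoietic stem cells of 2 genotypes, DekCon and DekTg, with 4 libraries each. Dek encodes a chromatin-associated protein, and the series title sets the work in the context of replication stress and Fanconi anemia, an inherited disorder of DNA crosslink repair. Both groups came from bone marrow and were sorted alike, as cells without CD48 and with CD150 in the LSK fraction (lineage-negative, Sca-1-positive, Kit-positive). The labels give no promoter, driver line, strain or age for either genotype, and do not say whether libraries of a group came from separate mice. So the p-values reflect only how far these libraries vary, which may be technical variation.

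SR proteins carry RNA recognition motifs near the amino terminus and a tail rich in arginine-serine dipeptides. They bind enhancer sequences in exons, recruit the spliceosome to nearby splice sites, and several of them also escort spliced mRNA out of the nucleus. Their activity and location are set by phosphorylation of the tail, by SRPK kinases in the cytoplasm and CLK kinases in the nucleus. Most SR genes can splice their own transcripts into forms with an early stop codon, which are degraded by nonsense-mediated decay, so the amount of RNA from an SR gene is not the amount of its protein-coding mRNA. In blood, SRSF2 is known for recurrent mutations in myelodysplastic syndromes and related leukemias.

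The values are normalized read counts, that is gene counts divided by 1 size factor per library. Between 2.53e+06 and 4.10e+06 reads were recovered per library, and a member rested on 11 reads (Srsf9) to 2990 reads (Srsf2) in a library. Reads were amplified without molecular identifiers, so they are not independent molecules. Dek was listed at 395 to 632 in DekCon and at 1862 to 2710 in DekTg, although the DekTg values of Dek are not whole numbers of reads. Libraries 1 and 4 agreed most closely within each group, with a chi-square per degree of freedom of 1.58 in DekCon and 1.67 in DekTg against 3.62 to 7.83 for other pairs, which is still more than sampling noise. DekCon replicate 2 and DekTg replicate 2 stood furthest from the rest, with a median correlation of 0.889 and 0.914 with the other libraries across genes, against 0.939 to 0.952 for the remaining 6. The sort markers Kit, Ly6a and Slamf1 were present in every library (summed normalized count 1486 to 1984), but most of that sum was Kit, at 1072 to 1557. Ly6a was at 110 to 248 and Slamf1 at 190 to 300. Transcripts of Cd48, whose protein was selected against, were found at a like level, 128 to 259. Slamf1 was 24.8% lower in DekTg, at 268 ± 31 in DekCon and 201 ± 12 in DekTg (limma adjusted p = 0.711).

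The 10 genes lie on 7 chromosomes of the GRCm38 assembly, all protein-coding, with Srsf1 and Srsf2 on chromosome 11, Srsf3 and Srsf7 on chromosome 17 and Srsf4 and Srsf10 on chromosome 4. The longest annotated protein ranges from 164 residues for Srsf3, the shortest of the family, to 511 residues for Srsf11. GENCODE M21 annotates transcripts routed to nonsense-mediated decay for 9 of the 10, all but Srsf10, and retained-intron transcripts for 8, all but Srsf9 and Srsf10. For Srsf11 there are 19 annotated transcripts, of which 5 are protein-coding, 3 are decay targets and 11 retain an intron. A count per gene sums all of these forms.

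Promoter windows of 250 bases before the RefSeq start were available for all 10 members (GRCm38.p6). They held 17 to 37 CpG dinucleotides, with a median of 29 against 6 over the 32851 windows of all genes, and a median GC content of 66.8% against 52.4%. Searched on both strands, the letters GGGCGG (a GC box) were in 9 of 10 windows and in 32.7% of all windows, CCGGAAG (an ETS factor core) in 4 of 10 and 6.91%, TGACG (part of the cAMP response element) in 6 of 10 and 17.8%, CCAAT in 3 of 10 and 33.8%, TATAAA in 2 of 10 and 12.4%, and the E-box CACGTG in 0 of 10 and 6.02%. GCATGCG, part of the site of nuclear respiratory factor, was in 1 of 10 and 3.02%. A match describes the letters only. The windows of Srsf2 and Srsf3 are shown as an example, because the ratio of these members did not overlap between the groups, as described below. That pair is 1 of 9 such pairs. A lower, non-overlapping ratio to Srsf3 was also found for 11.5% of other genes with a mean of at least 100. Srsf2 and Srsf3 are the members with TATAAA. The match of Srsf3 lies in the part of its window past the annotated gene start, which is not shown. The windows end just before the gene start, are written 5′ to 3′ on the strand of the gene, and have CCAAT (or ATTGG, its other strand), CCGGAAG and TATAAA in capitals. The Srsf2 window is chr11:116853095-116853344 on the minus strand, with CCAAT starting 82 bases and TATAAA 29 bases before the start site. The Srsf3 window is chr17:29032410-29032627 on the plus strand, with the CCAAT letters on the other strand, starting 58 bases before the RefSeq start.
Srsf2: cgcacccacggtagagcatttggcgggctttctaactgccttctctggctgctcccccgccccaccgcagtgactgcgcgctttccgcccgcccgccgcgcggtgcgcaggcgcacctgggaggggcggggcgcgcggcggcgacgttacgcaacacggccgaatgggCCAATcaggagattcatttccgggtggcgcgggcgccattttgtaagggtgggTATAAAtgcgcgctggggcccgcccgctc
Srsf3: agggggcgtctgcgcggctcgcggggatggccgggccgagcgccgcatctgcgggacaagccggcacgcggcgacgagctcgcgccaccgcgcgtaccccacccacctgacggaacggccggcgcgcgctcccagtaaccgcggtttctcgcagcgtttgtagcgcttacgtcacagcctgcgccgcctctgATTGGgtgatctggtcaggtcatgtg

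Levels of different genes can be compared only per length, so normalized read counts were divided by the length of the gene's merged exons. On this scale Srsf2 was the highest member in both groups, at 778 ± 127 per kb (DekCon) and 557 ± 146 per kb (DekTg), as mean and SD of 4 libraries. Srsf7, whose protein combines a zinc knuckle with the RNA recognition motif, came next at 406 ± 37 and 377 ± 70 per kb. Srsf5 followed at 222 ± 26 and 226 ± 34. In DekCon the ranges of these 3 did not overlap each other, while in DekTg the ranges of Srsf2 and Srsf7 did.

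A middle tier held Srsf6 (156 ± 15 per kb in DekCon), Srsf3 (133 ± 15), Srsf10 (116 ± 9) and Srsf11 (97.9 ± 7.2), where each neighbour in this order overlapped the next. Srsf1 lay below them at 75.4 ± 7.8 per kb, and Srsf4 at 38.0 ± 9.0. Srsf9, a close relative of Srsf1, was lowest at 11.8 ± 1.2 per kb in DekCon and 11.4 ± 3.9 in DekTg. The order of the middle tier depends on the length used. Per kb of the longest annotated transcript, Srsf11 rose to the third place in DekCon at 266 ± 20, beside Srsf3 at 261 ± 30 and Srsf5 at 254 ± 29, while Srsf2 at 1211 ± 198 and Srsf7 at 600 ± 54 remained first and next, and Srsf1, Srsf4 and Srsf9 remained last in that order.

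**Figure D1:**
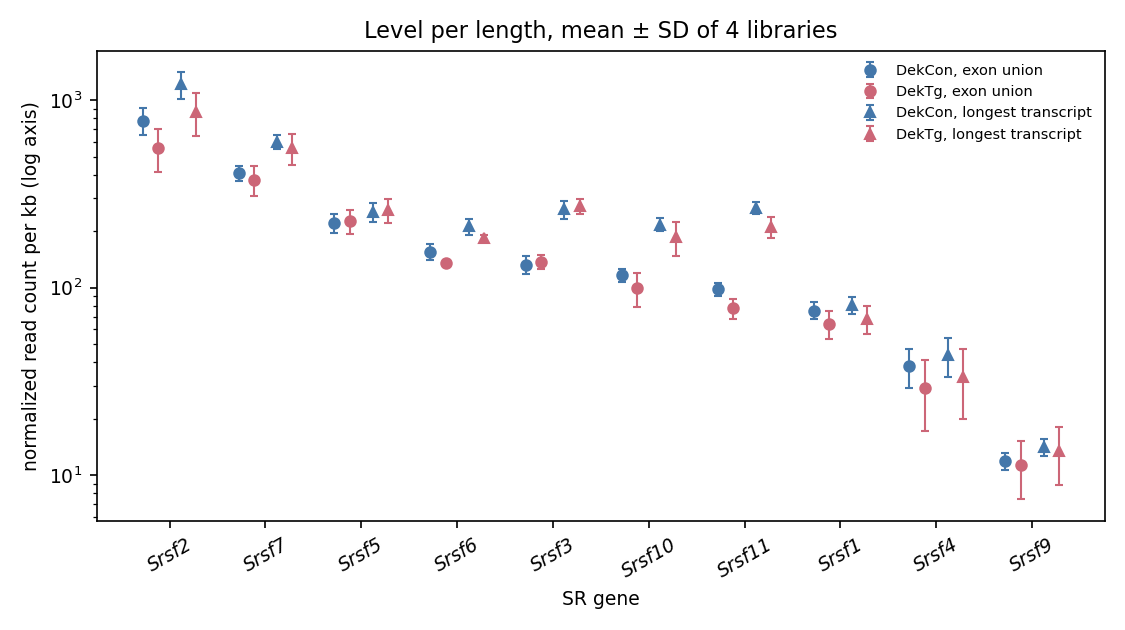
Level per length of the 10 SR genes (log axis, normalized read count per kb), as mean ± SD of 4 libraries per group; circles divide by merged exons and triangles by the longest transcript. Srsf2 was highest on both scales (778 and 1211 per kb in DekCon), and Srsf9 lowest.

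The comparison of DekTg with DekCon asks whether transcripts differ between stem cells of the 2 genotypes. For the SR family no member passed the test. The 95% intervals of Srsf2 and Srsf11 lay below 0, with means 28.4% and 20.8% lower in DekTg, Srsf4 had a similar difference with a wide interval, and Srsf3 and Srsf5 had nearly equal means. The count of members past the threshold (limma, adjusted p under 0.05 over all genes tested) was 0 of 10, where 13 genes, or 0.0347% of all tested, passed. At an unadjusted p under 0.05 there were 2 of 10, Srsf2 and Srsf11, both lower in DekTg, beside 3.78% of all genes tested lower at that level. EdgeR and DESeq2 on the recovered reads also called 0 of 10, with 2 members at an unadjusted p under 0.05 in each. The share of all genes at that level was not counted for these tools, nor for limma among genes with a mean of at least 100. The 2 members are therefore not read as an excess.

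Of the 10 log2 fold changes, on the scale log2(value + 1) and DekTg minus DekCon, 8 were below 0 and 2 above. Their median was -0.22, while the median over all genes tested was 0.01. Well-expressed genes as a whole lay below 0: among the 7602 genes with a mean of at least 100, to which 9 of the 10 members belong, 71.0% were below 0 and the median was -0.10. With quantile normalization, which forces all libraries to the same distribution, 7 members were below 0, with a median of -0.11, and the median of those well-expressed genes was 0.00. With it the log2 fold change was -0.29 for Srsf2, -0.17 for Srsf11, -0.14 for Srsf1, -0.09 for Srsf10, -0.02 for Srsf6 and 0.21 for Srsf3, none past the threshold. The unadjusted limma p of Srsf11 was then 0.095 and that of Srsf3, higher in DekTg, was 0.032. Without limma's trend the unadjusted p was 0.0505 for Srsf2 and 0.066 for Srsf11, and without DekTg replicate 1 it was 0.057 for Srsf11. With libraries 1 and 4 averaged the limma p was 0.037 for Srsf2 and 0.088 for Srsf11. So the interval of Srsf11 included 0 in each of these settings, and that of Srsf2 without the trend. A term for libraries 1 and 4 went the other way, with an unadjusted limma p of 0.0015 for Srsf2 and 0.0073 for Srsf11. In RNA from a cell population, fewer cells of a type and less RNA per cell cannot be told apart.

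**Figure D2:**
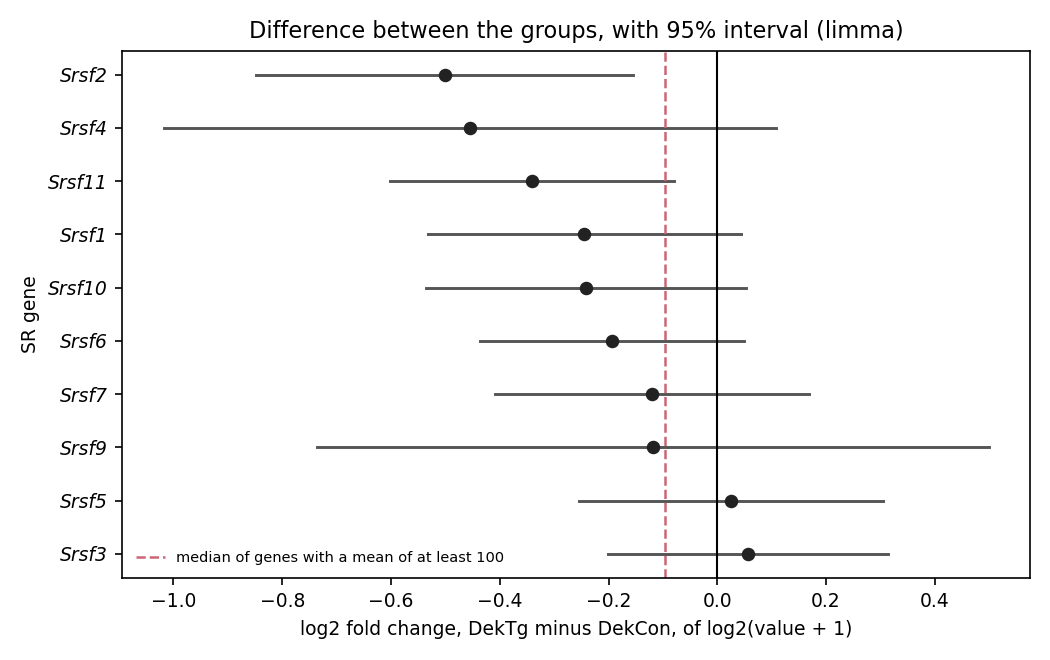
Log2 fold change (DekTg minus DekCon) of each SR gene with its 95% interval from limma; the dashed line is the median (-0.10) of genes with a mean of at least 100. The intervals of Srsf2 and Srsf11 lie below 0 and those of the other 8 members include 0.

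Srsf2, a component of nuclear speckles that acts on both constitutive and alternative splicing, was the most abundant member. Its normalized read count was 2057, 2861, 2164 and 2119 in DekCon replicates 1 to 4. In DekTg replicates 1 to 4 it was 1446, 2283, 1534 and 1327. DekTg replicates 1, 3 and 4 lay below every DekCon library, but DekTg replicate 2 lay above 3 of the 4, so the groups overlapped. The means were 2301 ± 376 and 1648 ± 432 (SD, n = 4 each), 28.4% lower in DekTg, and the log2 fold change was -0.50 (SE 0.16, 95% interval -0.85 to -0.15, limma adjusted p = 0.711). Leaving out DekTg replicate 2 gave -0.67 (adjusted p = 0.163), and leaving out DekCon replicate 2 gave -0.39 (adjusted p = 0.930). On the opposite strand Srsf2 shares 460 exon bases with Mettl23 and 288 with Mfsd11, 15.6% and 9.74% of its merged exons, and the strand setting of the counting is not given in the sources used here. Those neighbours were far lower, at 122 ± 17 and 117 ± 6 for Mettl23 and at 103 ± 13 and 102 ± 4 for Mfsd11 (DekCon and DekTg).

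Srsf11, which has an RNA recognition motif and interacts with splicing factors at the 3′ splice site, was the 1 member whose groups did not overlap. Over all genes tested, 1.88% had non-overlapping groups with DekTg lower, so 1 of 10 members is a small count to read. Srsf11 stood at 856, 893, 752 and 806 in DekCon replicates 1 to 4. It stood at 571, 735, 716 and 597 in DekTg replicates 1 to 4. The gap between the lowest DekCon library, replicate 3, and the highest DekTg library, replicate 2, was small beside the spread within groups. The means were 827 ± 61 and 655 ± 83 (SD, n = 4 each), and the log2 fold change was -0.34 (SE 0.12, 95% interval -0.60 to -0.08, limma adjusted p = 0.711). It was -0.40 without DekTg replicate 2 (adjusted p = 0.418) and -0.30 without DekCon replicate 2 (adjusted p = 0.930).

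Srsf3 and Srsf7 are small SR proteins that shuttle between nucleus and cytoplasm and act as adaptors of the export receptor Nxf1. For Srsf3 the libraries read 1033, 1217, 988 and 949 in DekCon and 1028, 1232, 1049 and 1039 in DekTg, in replicate order. Both groups spanned nearly the same range, with replicate 2 highest in each. Its log2 fold change was 0.06 (SE 0.12, 95% interval -0.20 to 0.31, limma adjusted p = 0.942). Srsf7 read 1501, 1581, 1280 and 1402 in DekCon, and 1159, 1695, 1311 and 1182 in DekTg. DekTg replicate 2 was the highest library of all and DekTg replicates 1 and 4 the lowest, so the DekTg libraries enclosed the DekCon range. The log2 fold change of Srsf7 was -0.12 (SE 0.14, 95% interval -0.41 to 0.17, limma adjusted p = 0.867), and it was 0.06 with quantile normalization. It was -0.24 without DekTg replicate 2 and -0.06 without DekTg replicate 1 (adjusted p = 0.601 and 0.966).

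Srsf1 and Srsf9 share the same layout, an RNA recognition motif followed by a variant one, and Srsf1 is a founding member with roles in splice site choice, export and translation. Srsf1 was found at 403, 489, 442 and 389 in DekCon and at 321, 460, 341 and 341 in DekTg. DekTg replicates 1, 3 and 4 were below all DekCon libraries and DekTg replicate 2 above 3 of them, as for Srsf2. Its log2 fold change was -0.24 (SE 0.14, 95% interval -0.53 to 0.04, limma adjusted p = 0.749). Srsf9 was barely covered, at 18.2 to 22.6 in DekCon and 10.7 to 25.5 in DekTg. At 11 to 31 reads per library its interval was wide, from -0.74 to 0.50 around a log2 fold change of -0.12 (limma adjusted p = 0.951). So the estimate could not be told from no difference, and the size of difference that these libraries could detect was not computed. Few reads and variation between libraries both widen the interval, and their shares were not separated.

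Srsf4, Srsf5 and Srsf6 form a subgroup that, like Srsf1, carries a pair of RNA recognition motifs. Srsf6 read 712, 837, 668 and 776 in DekCon and 629, 637, 673 and 670 in DekTg. The DekTg libraries lay closer together, with a coefficient of variation of 3.44% against 9.88% in DekCon. All 4 were below the DekCon mean of 748. The log2 fold change of Srsf6 was -0.19 (SE 0.12, 95% interval -0.44 to 0.05, limma adjusted p = 0.763). Srsf5 read 990, 824, 775 and 951 in DekCon and 843, 1099, 879 and 791 in DekTg, with no order between the groups. Its log2 fold change was 0.02 (SE 0.13, 95% interval -0.26 to 0.30, limma adjusted p = 0.981).

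Srsf4 was the most variable of these, at 141, 166, 90.5 and 145 in DekCon and 130, 50.4, 90.3 and 144 in DekTg. The lowest values were in replicates 2 and 3 of DekTg and replicate 3 of DekCon, while replicates 1 and 4 of both groups lay between 130 and 145. The log2 fold change was -0.46 (SE 0.27, 95% interval -1.02 to 0.11, limma adjusted p = 0.758), and it was -0.15 without DekTg replicate 2 (adjusted p = 0.868). Gm12992, a noncoding gene on the other strand, shares 1532 bases, or 43.0%, of the merged exons of Srsf4. It had the higher count of the 2 genes, 424 ± 59 in DekCon and 404 ± 66 in DekTg, so the Srsf4 level is uncertain.

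Srsf10, which can repress splicing when its tail is dephosphorylated in heat shock or mitosis, read 790, 884, 846 and 733 in DekCon. In DekTg it read 609, 900, 684 and 591. DekTg replicates 1, 3 and 4 were again below all DekCon libraries, and DekTg replicate 2 was the highest of the 8. Its log2 fold change was -0.24 (SE 0.14, 95% interval -0.54 to 0.05, limma adjusted p = 0.755), and -0.37 without DekTg replicate 2 (adjusted p = 0.439).

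**Figure D3:**
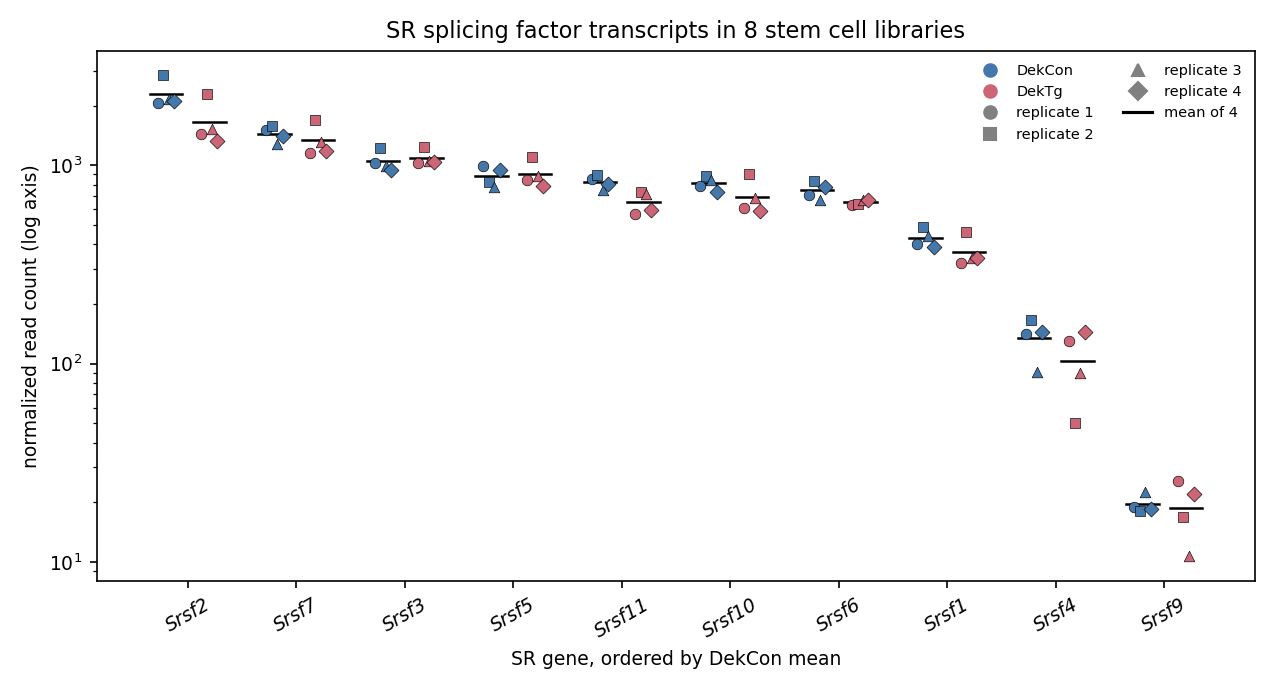
Normalized read count (log axis) of each SR gene in each library, with group by colour, replicate by symbol and the mean of 4 libraries as a bar. Replicate 2 (squares) is the highest library of its group for most members, and only Srsf11 has groups that do not overlap.

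Replicate 2 stood high for most members. Replicate 2 of DekCon or of DekTg was the highest of the 8 libraries for 9 of the 10 members, 5 in DekCon and 4 in DekTg. Of the 10 members, 8 lay above their own median in each of DekCon replicates 1 and 2. There were 5 in DekCon replicate 3, and 6 in each of DekCon replicate 4 and DekTg replicate 2. In DekTg, replicate 1 had 1 and replicates 3 and 4 had 3 each. The shares of all genes with these patterns were not counted, and replicate 2 of each group stood furthest from the rest across genes. So these counts are not read as a trait of the SR family. The summed count of the 10 genes was 8502, 9770, 8029 and 8288 in DekCon and 6761, 9108, 7288 and 6705 in DekTg, in replicate order. DekTg replicates 1, 3 and 4 were below every DekCon library, and DekTg replicate 2 was above 3 of them. As a share of the library's summed values, the family made up 0.266 ± 0.008% of DekCon and 0.244 ± 0.029% of DekTg libraries (SD over 4), with the highest share, 0.287%, in DekTg replicate 2.

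**Figure D4:**
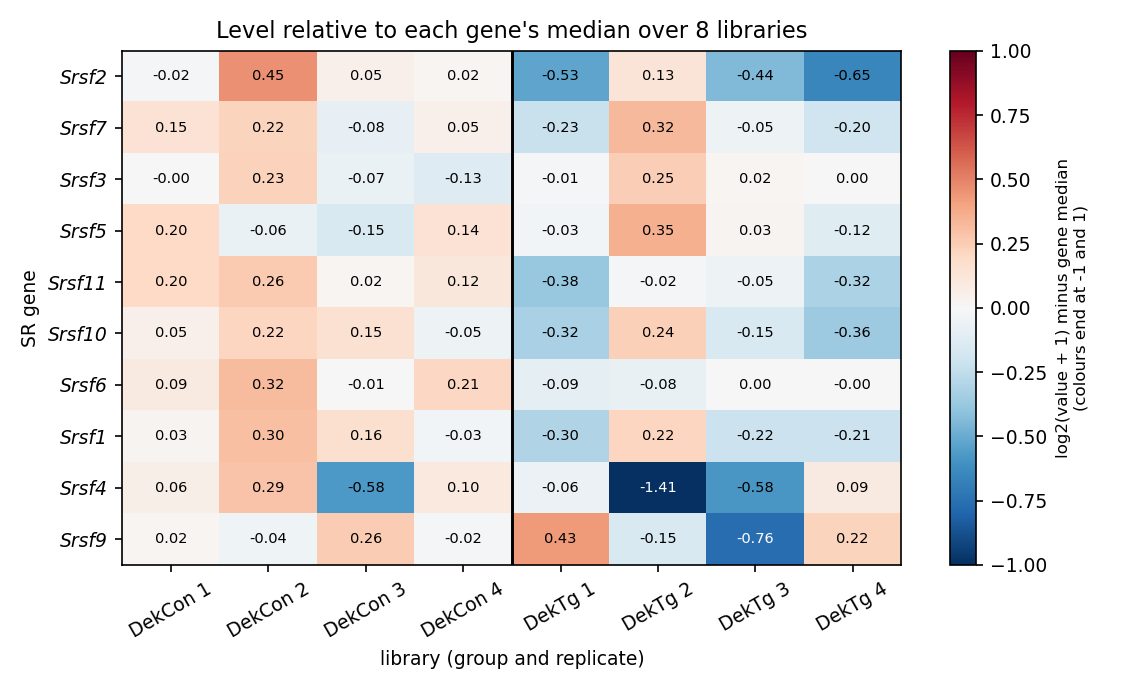
Level of each SR gene in each library, as log2(value + 1) minus the median of that gene over the 8 libraries. DekCon 1 and 2 (8 members each) and DekCon 4 and DekTg 2 (6 each) are mostly above 0. DekTg 1, 3 and 4 are mostly below, and Srsf4 is at -1.41 in DekTg 2.

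Ratios between members within a library do not depend on how that library was scaled. Across replicates 1 to 4, the ratio of Srsf2 to Srsf3 was 1.99, 2.35, 2.19 and 2.23 in DekCon and 1.41, 1.85, 1.46 and 1.28 in DekTg. The groups did not overlap, with mean ratios of 2.19 ± 0.15 and 1.50 ± 0.25 (SD over 4 libraries). Srsf11 to Srsf3 gave 0.793 ± 0.055 and 0.602 ± 0.056, also without overlap, with DekCon at 0.733 to 0.849 and DekTg at 0.556 to 0.683. Srsf2 to Srsf7 gave 1.60 ± 0.19 and 1.22 ± 0.10, where the lowest DekCon library (1.37) was just above the highest DekTg library (1.35).

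Of all 45 pairs of members, 9 had ratios whose groups did not overlap, and these 9 were among the 36 pairs of members with a mean of at least 100. Over all pairs of the 7601 genes of at least that mean and above 0 in every library, 5.08% did not overlap. Srsf2 was the member that lay relatively lower in DekTg in 4 of them, against Srsf3, Srsf5, Srsf7 and Srsf10. Srsf11 was the lower one in 3, against Srsf3, Srsf5 and Srsf7, and Srsf1 and Srsf6 in 1 each, against Srsf3. Srsf4 and Srsf9 appeared in none. These pairs were looked at after the values were known and share members, so they are a description with no test. Among other genes with a mean of at least 100, 11.5% had a lower and non-overlapping ratio to Srsf3 in DekTg, 3.97% to Srsf5, 1.39% to Srsf7 and 0.224% to Srsf10. Srsf3 accounted for 6.51 ± 0.24% of the family's count per kb of merged exons in DekCon and 8.10 ± 0.58% in DekTg, and Srsf2 for 38.1 ± 2.8% and 32.1 ± 2.8%.

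**Figure D5:**
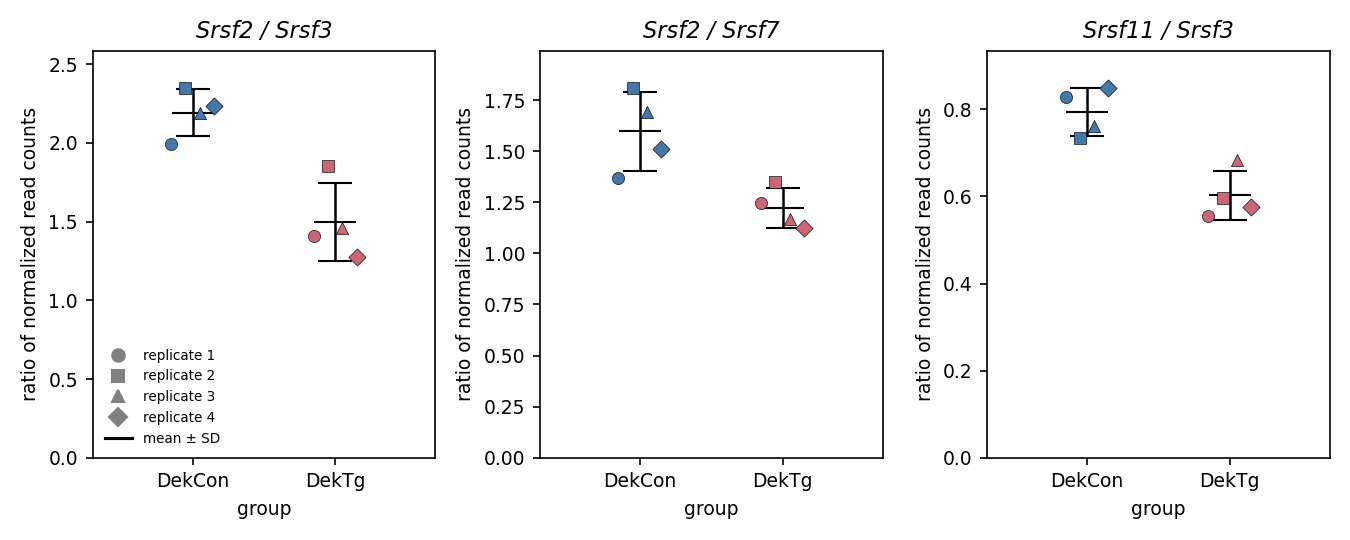
Ratios of normalized read counts within each library for 3 pairs of SR genes, with replicates by symbol and mean ± SD of 4 libraries. In each pair all DekTg libraries lie below all DekCon libraries, most narrowly for Srsf2 to Srsf7 (1.35 against 1.37).

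Genes that act with the SR proteins were read in the same fit. Of 11 SR kinases and import factors, 0 passed in either direction, with 9 below 0 and a median log2 fold change of -0.08. Srpk1, the kinase that phosphorylates SR proteins for nuclear import, was at 1416 ± 94 and 1188 ± 110 (log2 fold change -0.26, limma adjusted p = 0.711). The nuclear kinases Clk1 (0.02, adjusted p = 0.985) and Clk4 (-0.08, 0.917) and the import receptor Tnpo3 (-0.06, 0.936) differed less.

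Among 20 SR-related proteins, 0 passed, 18 lay below 0 and the median was -0.14. The splicing regulators Tra2b and Tra2a, which bind purine-rich enhancers, had log2 fold changes of -0.23 (limma adjusted p = 0.750) and -0.15 (0.836). The speckle scaffolds Srrm2 and Son had -0.21 (0.743) and -0.17 (0.790). The hnRNP proteins often oppose SR proteins at splice sites. Of 24 genes in that list 0 passed, 22 were below 0 and the median was -0.20, close to the -0.22 of the SR members. Hnrnpa1 stood at 1215 ± 261 and 1066 ± 281 (log2 fold change -0.20, limma adjusted p = 0.837), Hnrnpa2b1 at -0.23 (0.767), Ptbp1 at -0.15 (0.837) and Hnrnpc at 0.00 (0.999).

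Of 15 genes of nonsense-mediated decay and the exon junction complex, which degrade the unproductive SR transcripts, 0 passed, 12 were below 0 and the median was -0.16. The decay helicase Upf1 had few reads, at 38.5 ± 11.2 and 29.5 ± 12.9 (log2 fold change -0.41, limma adjusted p = 0.793). The decay kinase Smg1 had 0.09 (0.891) and the junction factor Eif4a3 had -0.19 (0.800). The mRNA export list gave 0 of 13 past the threshold, 12 below 0 and a median of -0.15, with the export receptor Nxf1 at -0.13 (0.843) and its adaptor Alyref at -0.08 (0.935).

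Among marker transcripts of other cells, only some of B and plasma cells and of erythroid cells passed the threshold. The sums of neutrophil, megakaryocyte, T and NK cell and stroma markers overlapped between the groups. Of 7 markers of B and plasma cells 2 were higher in DekTg, Igkc and Jchain, with a summed normalized count of 320 to 1065 in DekCon and 4354 to 5194 in DekTg. Of 7 erythroid markers 3 were higher, Hba-a1, Hba-a2 and Hbb-bs, with a sum of 123 to 322 and 469 to 592. Markers of neutrophils and their precursors (0 of 7 past the threshold) summed to 3678 to 9652 in DekCon and 2108 to 12905 in DekTg, those of megakaryocytes (0 of 5) to 2586 to 9218 and 1968 to 3316, those of T and NK cells (0 of 5) to 524 to 922 and 424 to 599, those of stroma (0 of 6) to 579 to 758 and 712 to 763, and stem cell identity genes (0 of 6) to 1796 to 2384 and 1565 to 1767. No marker in these lists was at 0 in all 8 libraries. DekCon replicate 2 had the highest megakaryocyte sum, 9218, and DekTg replicate 2 had a neutrophil sum of 4335 and a megakaryocyte sum of 3316. Of the mitochondrial share of reads, DekCon held 2.69 to 3.34% and DekTg 3.25 to 3.66%. The part of these differences in the SR levels was not tested.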

How the data were processed

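RNA was sequenced from 4 DekCon and 4 DekTg stem cell libraries, made by Geo-seq amplification and tagmentation per the labels. The submitters' processing notes name Bowtie 0.12.9, Cufflinks 2.1.1, HTSeq, DESeq2 and mm10, with no role or order. The authors' deposited table, named as FPKM, holds a signal for each gene in each library. Within a library 99.994% of values were whole multiples of 1 step (tolerance 0.001 reads), equal to a DESeq2-style size factor, so they were read as deposited counts scaled for depth only. All values of the SR members were whole. The exceptions, 25 values in 6 genes including Dek, stayed in the main test and were left out of count tests. The DekCon columns are headed DenCon, taken as a misspelling.

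Genes with a value of at least 1 in at least 4 libraries were tested with limma 3.58.1 (R 4.3.3) on log2(value + 1), with a mean-variance trend, two-sided, Benjamini-Hochberg over all genes, threshold 0.05. This test had been planned for FPKM and was kept for these normalized values. It was tested on simulated data with changes larger than the differences of the SR members, so the simulation does not cover differences of their size. Alternatives were other pseudocounts, filters, scalings, limma options, a replicate block, edgeR 4.0.16, DESeq2 1.42.0 and leaving out each library; averaging libraries 1 and 4, and a term for them, were added after seeing the data. The members and lists were chosen with earlier results of these data known. All members are named, with 18 related genes fixed by name, Dek, and any list gene past the threshold. Gene positions and lengths are from GENCODE M21, promoters from RefSeq (GRCm38.p6); protein sequences were not used here.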

Additional observations from a re-analysis of the deposited data

Results flagged for a closer look

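In 5 of 56 groups of 4 libraries (28 named genes), 1 library stood apart from the other 3 by Dixon's criterion; chance flags about 1 group in 20. In each case it was replicate 2 and the highest of its group. In DekTg replicate 2 these were Srsf1 at 460, Srsf3 at 1232, Hnrnpa1 at 1486 and Nxf1 at 449, and in DekCon replicate 2 it was Srsf2 at 2861.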

How the results depend on the processing

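The count of SR members past the threshold was 0 in the main analysis and under all 25 alternatives, and their median log2 fold change stayed below 0, from -0.24 (without DekCon replicate 1) to -0.11 (quantile normalization). The smallest adjusted p of any member was 0.163, for Srsf2 without DekTg replicate 2. The number of genes past the threshold, 13, was 4 without limma's trend, 8 without the genes whose values are not whole, and 13 to 22 on leaving out 1 library, with 22 without DekTg replicate 2. The sign of a member changed in 7 cases, none past the threshold: Srsf7 to 0.061 with quantile normalization, Srsf5 to -0.053 with library weights, to -0.007 without DekCon replicate 2, to -0.036 without DekCon replicate 3 and to -0.074 without DekTg replicate 2, Srsf3 to -0.005 without DekTg replicate 2 and Srsf9 to 0.112 without DekTg replicate 3. On leaving out 1 library, Srsf3 ranged from -0.005 to 0.132, Srsf5 from -0.074 to 0.085 and Srsf9 from -0.283 to 0.112. The cause was not tested. With the replicate number as a replicate block 15 genes passed and Srsf2 had a limma adjusted p of 0.165. Deviations of same-numbered libraries correlated at 0.04 to 0.17 across genes, not above 0.1 for every number. Those of differently numbered libraries ranged from -0.30 (DekCon 3 with DekTg 4) to 0.31 (DekCon 3 with DekTg 2). The numbers were therefore not taken as pairs. Reads were few for Srsf9 (11 to 31 per library) and Srsf4 (42 to 188). Srsf4 also varied between libraries, with a coefficient of variation of 23.5% in DekCon and 40.7% in DekTg.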

Other observations

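The other 2 rows of the table with an Srsf symbol were both low. Srsf12, a tissue-restricted SR protein related to Srsf10, had a DekCon mean of 10.7 ± 1.5 and a DekTg mean of 14.3 ± 3.4 (SD of 4 libraries; log2 fold change 0.37, limma adjusted p = 0.826). Srsf3-ps, a pseudogene of Srsf3, stood at 23.0 ± 3.7 and 26.2 ± 5.5 (0.18, adjusted p = 0.904), so reads listed there were few beside those of Srsf3. The antisense gene Gm11508, which shares 98 exon bases with Srsf1, was listed at 0 in all 8 libraries.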
